A study of Rattus norvegicus with 6 samples.

Results

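The genes described here are those of DNA replication and of the G1/S transition, in which a cell commits to copying its genome. A list of 43 gene symbols was drawn up by function, with earlier results of these data known. Of the 43, 42 have a row among the 18286 genes of the deposited table. E2f1 was not analysed here. All 42 passed the filter on low values, a mean of at least 1 RPKM (reads per kilobase of exon, scaled to the library total), which 10667 genes of the table passed. They were ordered by role into 11 genes of origin licensing, 20 of the replication fork, 4 of nucleotide supply, 3 of G1/S control, and 4 that act on new chromatin or on histone mRNA.

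The cells are RBL-2H3, a rat basophilic leukemia line that is used in place of mast cells because it carries the IgE receptor. Its question is the effect of dihydrocoumarin (DHC), a plant-derived lactone, on mast cells activated through IgE. There were 3 control libraries, whose treatment label is none, and 3 libraries of cells given DHC. All 6 carry a common protocol of 50 ng/ml IgE against DNP over 12 h and then 100 ng/ml of the antigen DNP-HSA over 4 h. Whether the control cells received IgE and antigen is not said apart from this shared text, and neither a dose nor a time is given for DHC, so the contrast is DHC against control as labelled. No label names separate cultures, and p-values therefore reflect a spread among libraries that could be technical. The line is of tumour origin and divides in culture.

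The libraries held between 29084976 and 34170922 reads assigned to genes. Of 10 mast cell markers, 9 had a row. Fcer1a, Ms4a2 and Kit, which encode receptor chains and the stem cell factor receptor, averaged 106.7, 320.9 and 114.7 RPKM in control, while the tryptase gene Tpsb2 was at or near 0 (0.0168 RPKM in control, 0 with DHC). The 9 markers summed to between 1020 and 1050 RPKM in the control libraries and between 705 and 731 RPKM with DHC. Of the 8 tested, 4 fell and 1 rose, where 16.1% of all genes tested fell and 18.4% rose. The transcription factor gene Gata2 fell 4.93-fold, from 344.6 ± 10.3 to 69.9 ± 1.9 RPKM (SD, 3 libraries per group), which is most of the fall in the sum. Il1rl1 fell 3.26-fold, Kit 1.78-fold and Hdc 1.24-fold, and Ms4a2 rose 1.15-fold. Fibroblast markers with a row summed to between 20.6 and 24.5 RPKM over the 6 libraries, epithelial ones to between 1.70 and 2.63 RPKM and macrophage ones to between 1.21 and 2.41 RPKM, and none of the 3 tested was called. The lymphocyte markers summed to between 32.0 and 37.8 RPKM in control and between 41.0 and 44.0 RPKM with DHC, nearly all of it Cd3e, which rose, with Cd3d at 0 in all control libraries. The part of these markers in the results below was not tested.

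DNA replication begins with licensing, in which the origin recognition complex (ORC), Cdc6 and Cdt1 load the MCM2-7 helicase onto DNA before S phase, and geminin holds Cdt1 back once S phase has begun. Cyclin E with its kinase, and E2F transcription factors released from the retinoblastoma protein, then drive entry into S phase. Cdc45 and the GINS complex switch the helicase on, polymerase alpha with primase starts each strand, and polymerases delta and epsilon extend it on the PCNA clamp that the RFC complex loads. Ribonucleotide reductase and thymidylate synthase supply the nucleotides, and the new DNA is packed with histones made in S phase.

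With DHC, 18 of the 42 genes rose and 2 fell (limma, adjusted p below 0.05), and 22 did not pass. Over all 10667 genes tested, 34.5% were called, 18.4% higher and 16.1% lower. The 18 make up 42.9% of the list. Slbp, which encodes the protein that binds the stem-loop of histone mRNA, rose 1.75-fold, Cdt1 1.55-fold, Pola2 1.41-fold, Pcna 1.36-fold and Gins3 1.35-fold. Rpa2, a subunit of the protein that coats unwound DNA, fell 1.39-fold, and Uhrf1, which guides DNA methylation to new DNA, fell 1.18-fold. N-fold values are ratios of mean RPKM, and log2 differences are of log2(RPKM + 1), DHC minus control, which understates the change of low genes. The changes were small, between -0.47 and 0.80 with a median of 0.21, against a median of 0.05 for all genes tested.

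The rise depended in part on how libraries were scaled. The deposited values are scaled by library totals, and scaling by trimmed means, which moved the median of all genes to -0.00, left 10 of the 42 higher and 2 lower. Under that scaling 12.0% of all genes were called higher, against 23.8% of the list, and the median of the list was 0.14. Without DHC replicate 3, 11 rose, or 26.2% of the list against 13.0% of all genes. With median-of-ratios factors 11 rose, or 26.2% against 12.8%. Under each of the 14 alternative settings, 10 of the 18 stayed called higher (Slbp, Cdt1, Pcna, Fen1, Gins2, Chaf1a, Cdc6, Gins3, Rfc5 and Pola2), and so did Rpa2 as lower. RNA of a whole culture was measured, so a larger share of cells in S phase and more mRNA in each such cell cannot be told apart, and no measure of cell cycle phase was available.

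**Figure D1:**
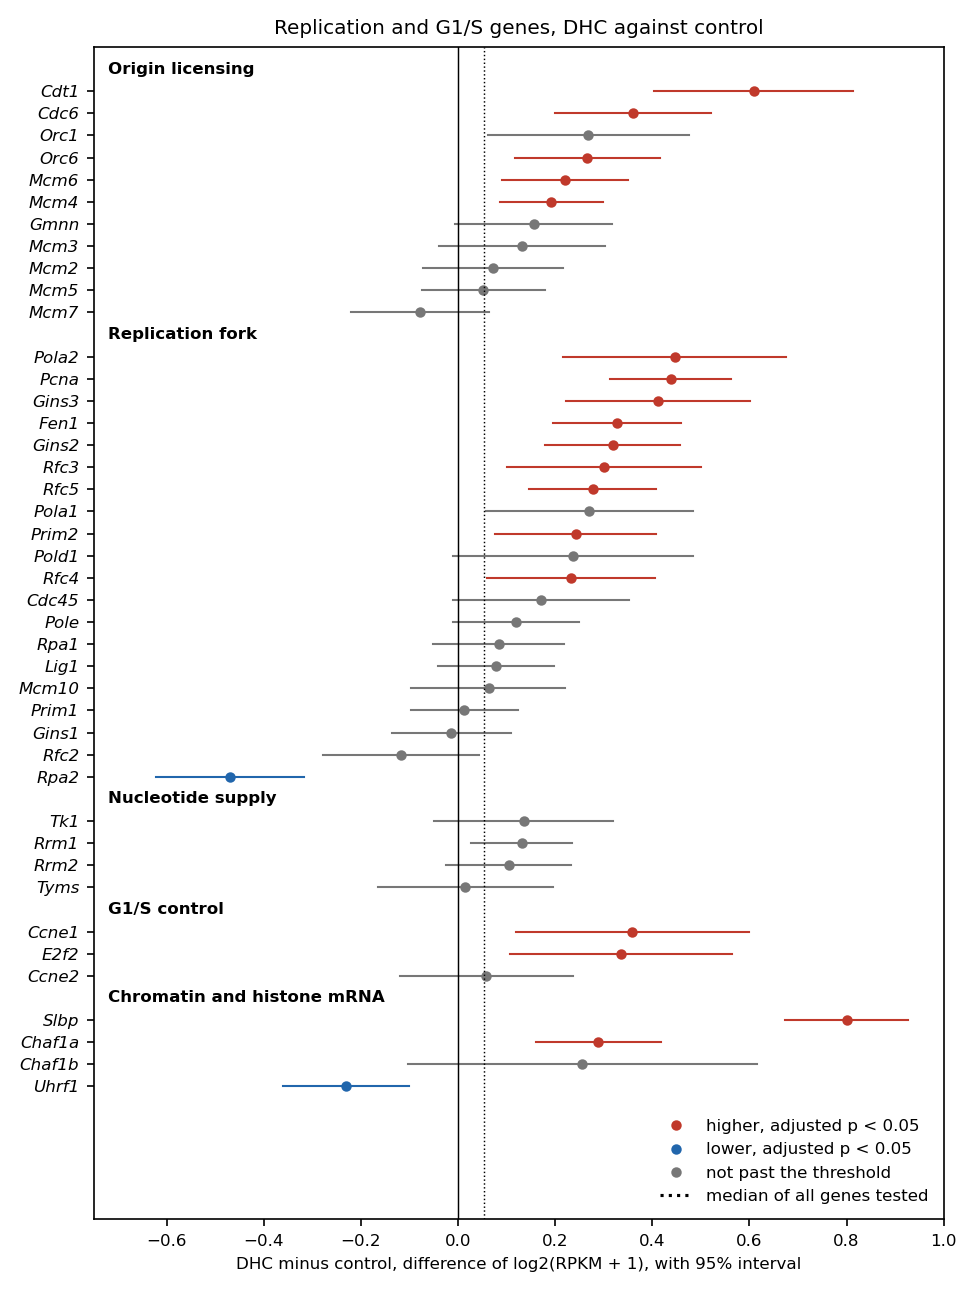
Difference between DHC and control for each of the 42 genes on the log2(RPKM + 1) scale (x axis), ordered by role (y axis), as a point with its 95% interval from limma. Red marks the 18 genes called higher, blue the 2 called lower and grey the other 22, and the dotted line is the median of all genes tested at 0.05. Slbp lies farthest to the right at 0.80 and Rpa2 farthest to the left at -0.47.

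Among the licensing genes, 5 of 11 rose, or 45.5% against 18.4% of all genes. None fell, where 16.1% of all genes did. The median log2 difference was 0.19, against 0.05 for all genes. With trimmed-mean scaling 2 of the 11 rose, where 12.0% of all genes did, and with median-of-ratios factors 3, where 12.8% did. Cdt1, which brings the helicase to the origin (Rnor_6.0 chromosome 19, 55381565 to 55386511, plus strand), stood at 22.8, 27.0 and 26.6 RPKM in the control libraries and at 39.1, 35.8 and 43.2 RPKM with DHC. The lowest DHC value lay well above the highest control value. Its log2 difference was 0.61 ± 0.09 (SE, 3 libraries per group, limma adjusted p = 0.00185). Cdc6, the ATPase that works with Cdt1 (chromosome 10, 86819472 to 86833402), was at 9.69, 9.48 and 9.56 RPKM in control and at 12.6, 11.7 and 13.5 RPKM with DHC (0.36 ± 0.07, limma adjusted p = 0.00624). The control values of Cdc6 lay close together (SD 0.106 RPKM), and the DHC values spread more widely above them (SD 0.905).

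The ORC subunits on the list were both higher in each DHC library than in any control library, as were 28.1% of all genes tested. Of those outside the list, looked up afterwards, Orc3 and Orc4 rose 1.30-fold and 1.32-fold (limma adjusted p = 0.0106 and 0.0143). Orc2 (25.1 ± 1.56 and 25.9 ± 0.48 RPKM) and Orc5 (3.32 ± 0.641 and 4.24 ± 0.556 RPKM) overlapped between groups and did not pass (0.613 and 0.144). Orc6 went from 16.1 ± 0.178 to 19.6 ± 1.39 RPKM (SD, n = 3), a call (limma adjusted p = 0.0161) lost with trimmed-mean scaling (0.051) and without control replicate 2 (0.0539) or DHC replicate 3 (0.0509). Orc1, the large ATPase subunit, was at 7.68, 7.07 and 6.54 RPKM in control and at 9.58, 8.68 and 8.01 RPKM with DHC, and missed the threshold (limma adjusted p = 0.0504, and between 0.0216 and 0.14 over the alternatives). Gmnn, which encodes geminin, the inhibitor of Cdt1, did not pass. It was at 95.2, 86.3 and 90.4 RPKM in control and 111.3, 96.6 and 95.8 RPKM with DHC (log2 difference 0.16, 95% interval -0.01 to 0.32, limma adjusted p = 0.12). Its DHC values all lay above the control values, DHC 3 by only a small margin over control 1.

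Because both genes are read in the same library, the ratio of Cdt1 to Gmnn does not depend on the scaling. In control it was 0.24, 0.313 and 0.294, and with DHC 0.351, 0.371 and 0.45. The groups did not overlap. An exact permutation test (two-sided) gave p = 0.1, and 3 against 3 libraries cannot reach a smaller p. The mean log2 ratio was 0.47 higher with DHC, and between 0.36 and 0.55 higher when each library was left out in turn.

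The MCM2-7 genes encode the ring-shaped helicase, and their median log2 difference was 0.10. Mcm4 and Mcm6 rose, by 1.15-fold and 1.17-fold, and Mcm2, Mcm3, Mcm5 and Mcm7 did not pass. Mcm6 (chromosome 13, 45042882 to 45068077) was at 42.7, 46.4 and 46.8 RPKM in control and 52.3, 51.0 and 55.3 RPKM with DHC, and Mcm4 (chromosome 11, 89511191 to 89524892) at 32.7, 33.4 and 33.2 RPKM against 38.5, 36.9 and 38.5 RPKM. In both genes the groups did not overlap. Neither call held under scaling by trimmed means (limma adjusted p = 0.0727 for Mcm4 and 0.0863 for Mcm6), by median-of-ratios factors (0.0578 and 0.0689) or without DHC replicate 3 (0.0541 and 0.0688), and that of Mcm6 also ended without both libraries numbered 1 (0.0519). Mcm7 was the most abundant subunit transcript per kilobase and the only one of the 6 with a lower log2 mean with DHC (under trimmed-mean and median-of-ratios scaling Mcm5 was lower too), at 91.9 ± 6.98 and 86.8 ± 2.08 RPKM (95% interval of the log2 difference -0.22 to 0.06).

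Within a library Mcm7 stood lower relative to Mcm6 with DHC. These have the lowest and highest log2 differences of the 6, were paired after values were seen, and their ratio was not tested. The ratio of Mcm7 to Mcm6 was 1.97, 2.09 and 2.03 in control and 1.65, 1.67 and 1.61 with DHC, without overlap. Mcm7 made up between 27.8% and 29.2% of the summed RPKM of the 6 genes in control and between 25.2% and 25.7% with DHC, and Mcm2 between 20.8% and 21.5% over all 6 libraries. The sum of the 6 was 301.9, 331.9 and 337.1 RPKM in control and 336.7, 331.1 and 353.9 RPKM with DHC, which overlap.

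**Figure D2:**
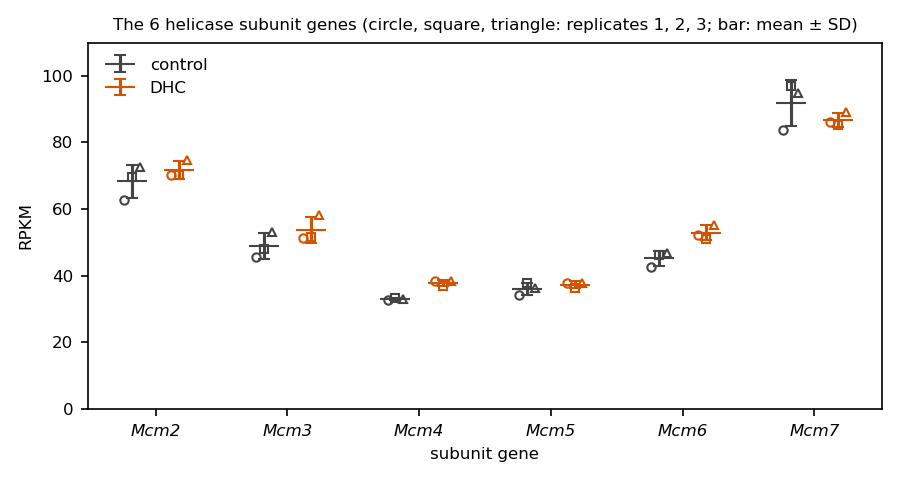
Level in RPKM (y axis) of the 6 helicase subunit genes (x axis) in each control (grey) and DHC (orange) library, with the mean and SD of each group (n = 3). Mcm4 and Mcm6 lie higher in all DHC libraries than in any control library, and the groups overlap for the other 4.

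Of the genes that turn the loaded helicase into a moving fork, Gins2 and Gins3 rose. Gins3 (chromosome 19, 9835057 to 9843673) was at 12.3, 14.4 and 12.4 RPKM in control and 19.0, 17.3 and 16.6 RPKM with DHC (log2 difference 0.41 ± 0.08, limma adjusted p = 0.00716). Gins2 (chromosome 19, 54151048 to 54163608) was at 9.85, 9.67 and 10.0 RPKM against 12.8, 12.8 and 12.0 RPKM (0.32 ± 0.06, 0.00569). Neither gene's groups overlapped. Gins1, a subunit of the same 4-part complex, was at 26.7 ± 1.16 and 26.4 ± 0.456 RPKM, with an interval of -0.14 to 0.11, and the fourth subunit gene, Gins4, looked up after the others were seen, at 50.0 ± 2.02 and 49.8 ± 0.753 RPKM (-0.12 to 0.11). The ratio of Gins3 to Gins1 within a library, a pair picked after values were seen, was between 0.451 and 0.568 in control. It was between 0.619 and 0.731 with DHC and was not tested. Cdc45, the third part of the active helicase, was higher in every DHC library (7.95 ± 0.494 and 9.07 ± 0.588 RPKM) and did not pass (limma adjusted p = 0.127), and Mcm10, an activation factor, was at 7.49 ± 0.341 and 7.86 ± 0.241 RPKM (0.504).

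Polymerase alpha and primase lay down the primers of each new strand. Pola2, the accessory subunit of the polymerase (chromosome 1, 221273538 to 221321570), was at 6.87, 7.57 and 5.85 RPKM in control and 8.81, 9.89 and 9.94 RPKM with DHC (log2 difference 0.45 ± 0.10, limma adjusted p = 0.0113). The groups did not overlap, but the control values spread widely (SD 0.862 RPKM). Pola1, the catalytic subunit, was at 9.72 ± 0.89 and 11.9 ± 1.05 RPKM and missed the threshold (limma adjusted p = 0.0536, and 0.0105 with limma-voom). Prim2, the large primase subunit, rose 1.19-fold (limma adjusted p = 0.0337), but under 8 of 14 alternatives the call ended, with p up to 0.115. Prim1, the small subunit, was at 46.4 ± 1.96 and 46.8 ± 0.386 RPKM. Of the polymerases that extend the strands, Pold1 (3.64 ± 0.194 and 4.49 ± 0.645 RPKM) and Pole (10.9 ± 0.0651 and 11.9 ± 0.0999 RPKM) did not pass (limma adjusted p = 0.123 and 0.135). Every DHC value of both lay above every control value, for Pold1 only narrowly (3.869 RPKM in DHC 2, 3.855 in control 3). Of their other subunit genes, looked up afterwards, Pold2, Pold4 and Pole4 rose (limma adjusted p = 0.0242, 0.0389 and 0.00265). Pold3, Pole2 and Pole3 did not pass (0.21, 0.356 and 0.767).

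The sliding clamp and its loader held 4 of the 9 fork genes that rose. Pcna, the clamp (chromosome 3, 124880698 to 124884570, minus strand), was at 99.7, 91.9 and 88.2 RPKM in control and 126.8, 123.7 and 129.0 RPKM with DHC. The DHC libraries lay close together and all well above control. The log2 difference was 0.44 ± 0.05 (limma adjusted p = 0.000862). Rfc5, a small subunit of the clamp loader (chromosome 12, 44931494 to 44941324), was at 12.3, 12.3 and 11.8 RPKM in control and at 14.9, 14.6 and 15.2 RPKM with DHC (0.28 ± 0.06, 0.00802). Rfc3 and Rfc4 rose 1.24-fold and 1.18-fold (limma adjusted p = 0.0313 and 0.0446), and each call ended under 8 of 14 alternatives, with p up to 0.0964 and 0.134. Rfc2 was at 21.3 ± 0.401 and 19.6 ± 1.7 RPKM (0.227), with a p of 0.0475, as lower, without DHC replicate 1. The ratio of Rfc5 to Rfc2 within a library, a pair picked after values were seen, was between 0.541 and 0.588 in control. It was between 0.691 and 0.817 with DHC and was not tested.

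On the lagging strand, Fen1, the nuclease that trims primer flaps (chromosome 1, 226251518 to 226255886), was at 20.8, 21.8 and 19.5 RPKM in control and 25.8, 26.6 and 26.3 RPKM with DHC (log2 difference 0.33 ± 0.06, limma adjusted p = 0.00411). An unnamed gene on the opposite strand, AABR07006258.1, covers 23.3% of the exon bases of Fen1, and all 507 of its own exon bases lie within them. It rose as well, from 40.1 ± 1.32 to 52.0 ± 1.52 RPKM (log2 difference 0.37, limma adjusted p = 0.00121). The sources used here do not say whether counting used strand, and reads of the 2 genes may not have been told apart. Lig1, the ligase that seals the fragments, did not pass (38.1 ± 1.86 and 40.3 ± 0.531 RPKM, 0.267).

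Rpa2 was the only 1 of the 20 fork genes called lower, where 16.1% of all genes were. It encodes the middle subunit of replication protein A, which binds single strands (chromosome 5, 150957001 to 150968269), and was at 49.6, 50.6 and 47.2 RPKM in control and 36.9, 36.6 and 32.1 RPKM with DHC. Each DHC library lay well below each control library. The log2 difference was -0.47 ± 0.07 (limma adjusted p = 0.00152), and between -0.54 and -0.41 over the alternatives. Rpa1, the large subunit of the same trimer, was at 34.4 ± 1.97 and 36.5 ± 1.18 RPKM, with an interval of -0.05 to 0.22. The ratio of Rpa2 to Rpa1 within a library was accordingly 1.39, 1.43 and 1.47 in control and 0.982, 0.998 and 0.911 with DHC. Rpa3, the small subunit, also looked up afterwards, was at 26.0 ± 0.885 and 29.0 ± 0.367 RPKM and missed the threshold (0.0508).

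**Figure D3:**
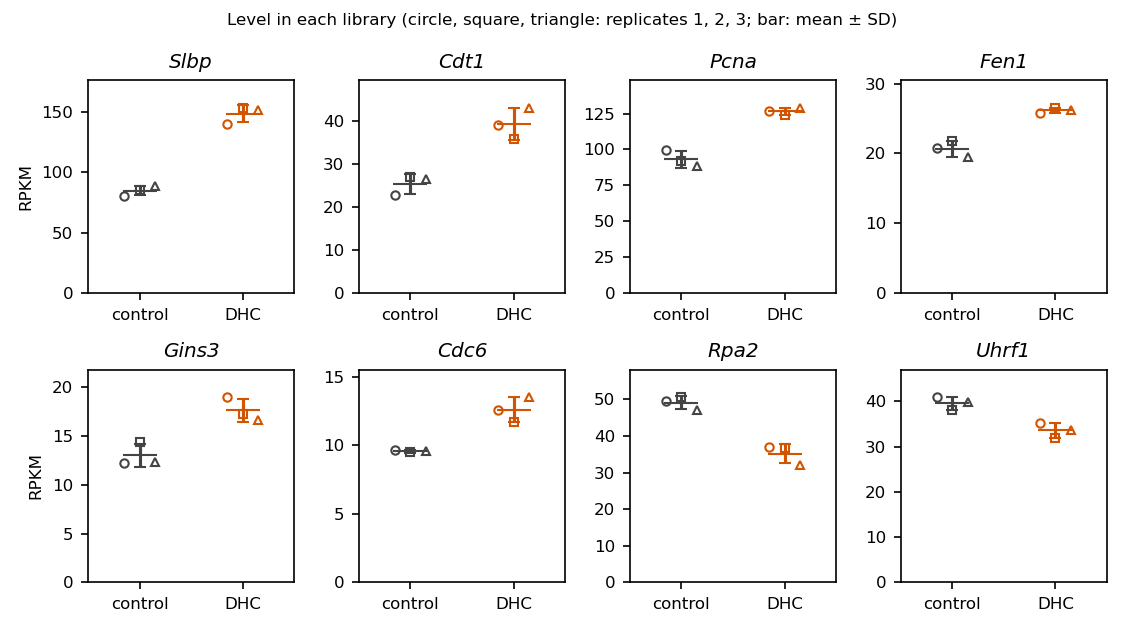
Level in RPKM (y axis, from 0) of 8 genes in each control and DHC library, with the mean and SD of each group (n = 3). In Slbp, Cdt1, Pcna, Fen1, Gins3 and Cdc6 all 3 DHC libraries lie above all control libraries, and in Rpa2 and Uhrf1 all 3 lie below.

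No gene of nucleotide supply passed the test. Rrm1 and Rrm2, the subunits of ribonucleotide reductase, were at 61.8 ± 0.819 and 67.8 ± 2.31 RPKM (95% interval of the log2 difference 0.03 to 0.23, limma adjusted p = 0.0551) and at 75.6 ± 1.02 and 81.4 ± 5.21 RPKM (-0.02 to 0.23, 0.179). Rrm1 lay higher in every DHC library and passed with limma-voom (0.0447). Rrm2 passed without DHC replicate 1 (0.0349) and without both libraries numbered 1 (0.0339). Tyms, thymidylate synthase, was at 15.6 ± 1.18 and 15.7 ± 1.07 RPKM (-0.17 to 0.20), and Tk1, thymidine kinase, at 11.0 ± 0.75 and 12.2 ± 0.922 RPKM (-0.05 to 0.32). These intervals still hold rises of up to 24.8% for Tk1, 17.6% for Rrm1, 17.5% for Rrm2 and 14.5% for Tyms on this scale. The ratio of Rrm2 to Rrm1 was between 1.21 and 1.23 in control and between 1.14 and 1.26 with DHC.

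Of the genes that drive G1/S entry, Ccne1, a cyclin E gene, was at 4.66, 6.30 and 5.75 RPKM in control and 7.19, 7.34 and 7.61 RPKM with DHC (log2 difference 0.36 ± 0.10, limma adjusted p = 0.0315). E2f2, an activating E2F factor, was at 2.14, 2.17 and 2.21 RPKM against 2.96, 2.73 and 3.35 RPKM (0.34 ± 0.10, 0.0341). Both genes were higher in all DHC libraries. Both are low in these cells, with between 278 and 449 reads per library for Ccne1 and between 298 and 461 for E2f2. The Ccne1 call ended under 9 of 14 alternatives and the E2f2 call under 10, with p up to 0.0881 and 0.11. Ccne2, the other cyclin E gene, was at 13.9 ± 1.01 and 14.5 ± 0.985 RPKM (interval -0.12 to 0.24). An opposite-strand gene, Ints8, shares 10.4% of the exon bases of Ccne2.

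Slbp had the largest difference of the 42 genes. Its protein binds the stem-loop that ends the mRNAs of replication-dependent histones, and is needed for their processing and translation. Slbp (chromosome 14, 82356916 to 82366368, plus strand) was at 80.7, 85.5 and 88.4 RPKM in control and at 140.4, 153.5 and 151.4 RPKM with DHC. The gap between the groups was far wider than the spread inside either. The log2 difference was 0.80 ± 0.05 (limma adjusted p = 5.6e-05), and between 0.73 and 0.84 over the alternatives. Relative to Pcna, Slbp stood at 0.809, 0.931 and 1.0 in control and at 1.11, 1.24 and 1.17 with DHC. Of 31 histone cluster genes with a row, 25 were tested and 17 rose, or 68.0% against 18.4% of all genes. None fell, where 16.1% of all genes did, and the median log2 difference was 0.56. Hist1h1t (mean 0.602 RPKM in control, 7.04 with DHC) and Hist1h2ail1 (0.783 and 1.34) passed the filter only through the DHC libraries, and both are among the 17. The histone cluster genes were picked by symbol after values were seen. Their sequences are so alike that values of single ones are uncertain.

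Chaf1a, the large subunit of chromatin assembly factor 1 (chromosome 9, 11001129 to 11027506), was at 62.1, 69.0 and 63.8 RPKM in control and 83.0, 78.1 and 77.4 RPKM with DHC (log2 difference 0.29 ± 0.06, limma adjusted p = 0.0062). Chaf1b, a smaller subunit of the same factor, was far lower, at 1.5 ± 0.375 and 1.98 ± 0.42 RPKM, and did not pass (0.235). Uhrf1 (chromosome 9, 10738222 to 10757954) fell. It was at 40.9, 38.1 and 39.8 RPKM in control and 35.2, 31.9 and 33.6 RPKM with DHC (-0.23 ± 0.06, 0.0161), a call that ended without DHC replicate 2 (0.0657). Dnmt1, the methyltransferase that Uhrf1 brings to new DNA, was at 151.5 ± 4.53 and 180.6 ± 3.03 RPKM and rose (0.25 ± 0.04, 0.00307), and was singled out after its value was seen.

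E2F factors bind a short sequence in the promoters of many replication genes, so the promoters were searched for its letters. RefSeq promoter windows of the build GRCr8, 250 bases before to 50 after an annotated start, were matched by symbol for 36 of the 42 genes, and Ccne2, Cdc6, E2f2, Mcm4, Orc1 and Rrm2 had none. The letters were searched on both strands in 4 forms, TTTCGCGC, TTTGGCGC, TTTCCCGC and TTTGCCGC, and a pair of matches may overlap. At least 1 form lay in 16 of the 36 windows, or 44.4%, against 4.6% of the windows of 7173 tested genes and 2.25% of all 27457. In the 250 bases before the start alone, the shares were 25.0%, 3.72% and 1.81%. Of the 15 genes that rose and have a window, 5 held the letters (Slbp, Cdt1, Gins3, Rfc3 and Mcm6), of the 2 that fell 1 did (Rpa2), and of the 19 that did not pass 10 did. The letters were thus present in genes of each call, and a difference between calls was not tested. The letters CCAAT lay in 61.1% of the 36 windows and in 38.8% of those of tested genes, and GGGCGG in 66.7% and 64.9%. A match is a description of the sequence and shows no binding.

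The 250 bases before the start are printed for the 4 genes with the lowest limma adjusted p among those that hold the letters there, with the matched letters in capitals. These are Slbp, Gins3 and Mcm6, which rose, and Pola1, which missed the threshold. The windows, on GRCr8, are chr14:81295998-81296247 on the plus strand for Slbp, chr19:9434680-9434929 on the minus strand for Gins3, chr13:42404353-42404602 on the minus strand for Mcm6 and chrX:62342356-62342605 on the minus strand for Pola1.
Slbp: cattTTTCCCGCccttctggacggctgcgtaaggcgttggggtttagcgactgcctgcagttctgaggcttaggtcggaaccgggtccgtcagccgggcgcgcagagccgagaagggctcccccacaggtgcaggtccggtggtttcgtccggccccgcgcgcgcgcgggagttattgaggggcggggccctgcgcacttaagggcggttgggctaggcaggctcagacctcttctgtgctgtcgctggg
Gins3: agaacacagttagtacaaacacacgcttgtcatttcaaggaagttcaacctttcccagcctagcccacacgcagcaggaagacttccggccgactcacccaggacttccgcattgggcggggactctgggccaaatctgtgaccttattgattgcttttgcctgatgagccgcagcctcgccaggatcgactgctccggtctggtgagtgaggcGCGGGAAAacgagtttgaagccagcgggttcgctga
Mcm6: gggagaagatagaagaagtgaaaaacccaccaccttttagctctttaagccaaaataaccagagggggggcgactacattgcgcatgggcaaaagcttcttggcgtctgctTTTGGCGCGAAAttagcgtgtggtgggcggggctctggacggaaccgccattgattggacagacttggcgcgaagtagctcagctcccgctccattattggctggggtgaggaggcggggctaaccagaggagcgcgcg
Pola1: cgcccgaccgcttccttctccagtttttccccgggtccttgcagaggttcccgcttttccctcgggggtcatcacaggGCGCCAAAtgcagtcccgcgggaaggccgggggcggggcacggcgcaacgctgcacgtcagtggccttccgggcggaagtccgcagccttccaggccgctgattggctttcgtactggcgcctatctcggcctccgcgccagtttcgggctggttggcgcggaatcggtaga
In Slbp the match begins 246 bases before the start, in Gins3 36, in Mcm6 139 and 135 and in Pola1 172. The pair in Mcm6 overlaps. In Cdt1 the matches lie after the start, in the transcribed bases, and are not printed.

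The libraries of a group did not move as 1 block. Of the 42 genes, 20 had their highest value in DHC 3, 10 in DHC 1 and 6 in DHC 2, and the other 6 in a control library. The lowest value lay in control 1 for 18 genes, in control 2 for 12 and in control 3 for 9. All 3 DHC values lay above all 3 control values for 25 genes and below them for 2 (Rpa2 and Uhrf1), where 28.1% of all genes tested had all DHC values above and 21.6% all below (49.7% in either direction). Together the 42 genes took 0.322%, 0.332% and 0.331% of the reads of the control libraries and 0.37%, 0.363% and 0.375% of those of the DHC libraries.

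**Figure D4:**
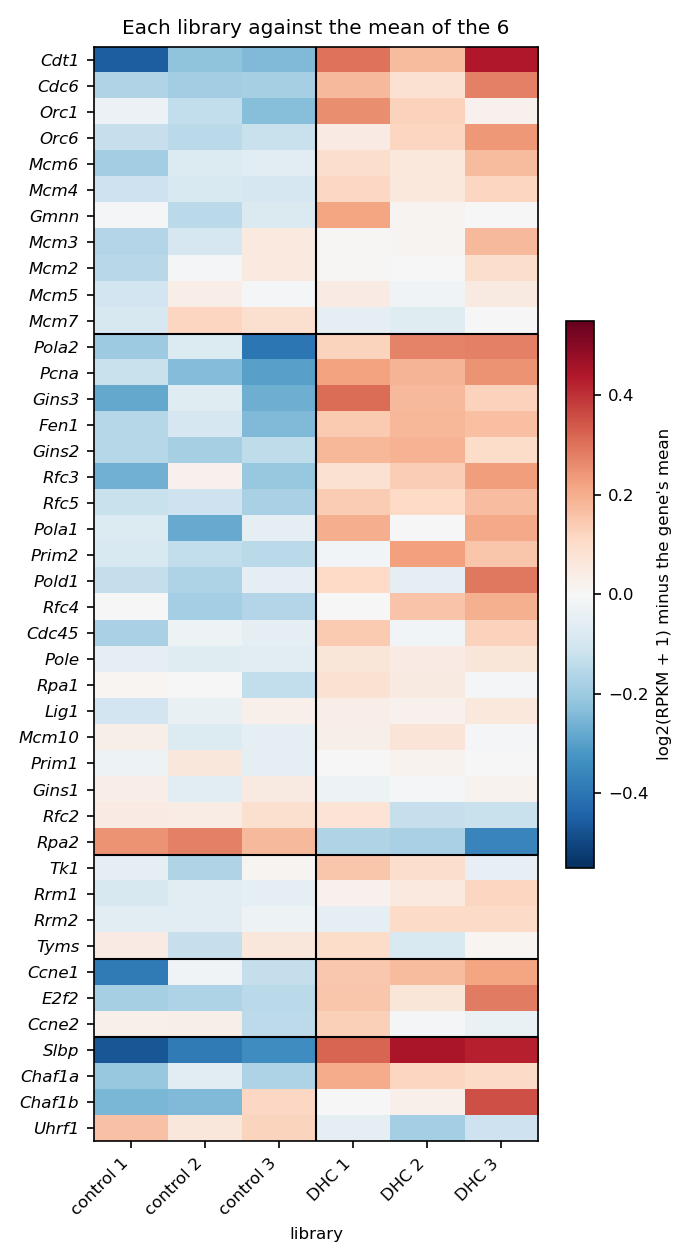
Each of the 42 genes (rows, by role and then by difference) in each of the 6 libraries (columns), as log2(RPKM + 1) minus the gene's mean over the libraries, with red above and blue below it. Slbp and Cdt1 show the widest swing from blue in control to red with DHC, and Rpa2 and Uhrf1 the opposite.

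Another 63 genes of replication and G1/S control, listed by function with earlier results known, had a row and were all tested. Of these 31 rose, or 49.2% against 18.4% of all genes, and 1 fell, where 16.1% of all genes did. The median log2 difference was 0.18. The count of rises was 17 without control replicate 2 (12.7% of all genes rose there) and 17 without DHC replicate 2 (11.2%). It was 18 without DHC replicate 3 (13.0%), 20 without control replicate 3 (13.5%) and 19 with no filter on low values (9.15%). The lowest p-value was that of Clspn, which encodes claspin, an adaptor of the replication checkpoint. It was at 46.6, 45.4 and 43.4 RPKM in control and 70.3, 65.3 and 66.6 RPKM with DHC (0.57 ± 0.05, limma adjusted p = 0.000184). Topbp1, which activates the checkpoint kinase ATR, rose from 16.5 ± 1.25 to 24.7 ± 0.988 RPKM (0.000916), and Tipin, of the fork protection complex, from 107.5 ± 4.57 to 134.7 ± 3.86 RPKM (0.00199).

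Also among the 6 lowest were Nasp, a histone chaperone gene, at 184.8 ± 2.26 and 225.2 ± 5.33 RPKM, Fbxo5, an inhibitor of the anaphase-promoting complex, at 16.1 ± 0.78 and 21.7 ± 0.832 RPKM, and Tfdp1, the partner of E2F factors, at 27.4 ± 0.859 and 34.1 ± 0.416 RPKM. All 3 rose (limma adjusted p = 0.00137, 0.00193 and 0.00255). The gene that fell was Ticrr, which helps Cdc45 join the helicase. It stood at 4.73, 5.25 and 5.74 RPKM in control and at most 3.63 RPKM with DHC, with a DHC mean of 3.57 ± 0.0621 (log2 difference -0.45 ± 0.09, limma adjusted p = 0.00713). These 7 calls held under each of the 14 alternatives.

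Genes of the later phases were set beside these. Of 24 G2 and M phase genes tested, 7 rose, or 29.2% against 18.4% of all genes, and 1 fell, where 16.1% of all genes did. The median log2 difference was 0.07, against 0.05 for all genes. Aurkb, a mitotic kinase gene, rose from 13.1 ± 0.778 to 23.4 ± 0.981 RPKM (0.79 ± 0.07, limma adjusted p = 0.000129), Kif23 1.29-fold and Hmmr 1.22-fold, and Cenpf, a kinetochore protein gene, fell from 49.2 ± 2.23 to 35.1 ± 3.92 RPKM (-0.48 ± 0.08, 0.00356). The difference between the G2 and M phase list and the replication genes was not tested.

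**Figure D5:**
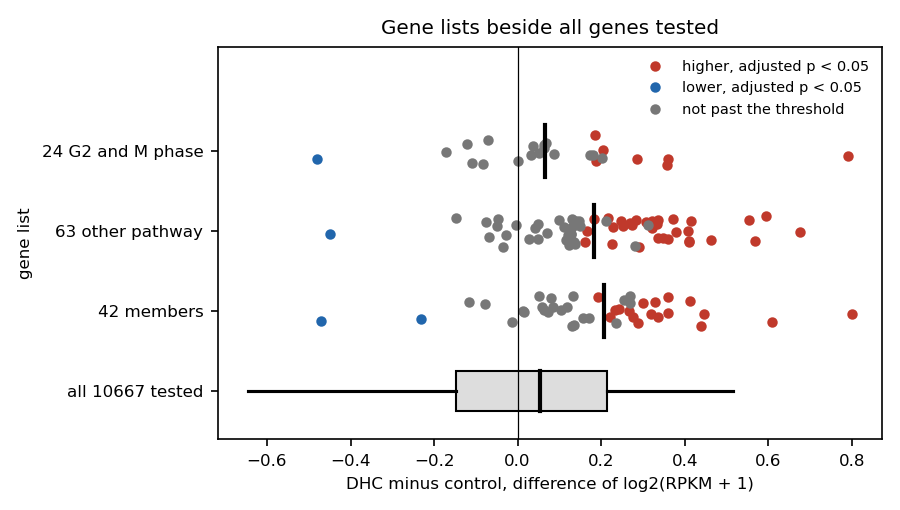
Difference between DHC and control on the log2(RPKM + 1) scale (x axis) for the 42 genes, the 63 other genes of the pathway and the 24 G2 and M phase genes, 1 point per gene with the list's median as a bar (0.21, 0.18 and 0.07), coloured by call. The box for all 10667 genes tested spans the 25th to 75th percentile (-0.15 to 0.22) with whiskers to the 5th and 95th (-0.65 and 0.52) and its median at 0.05.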

How the data were processed

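RNA-seq of 6 libraries was analysed from 1 table. The authors worked on the build Rnor_6.0 with edgeR 3.12.1, Trimmomatic 0.36 and Subread 1.5.1 (its featureCounts), per the submitters' processing notes. The aligner and annotation release were not given in the sources used here. The deposited values are RPKM, scaled by library totals only, and per the file headers the table also gives each gene's summed exon length. Value times length came out as a whole number of reads for 100% of values within 0.01 read, which gave the totals per library.

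Groups and replicate numbers were taken from the sample titles. limma 3.58.1 in R 4.3.3, with a trended variance and no covariate, was fitted to log2(RPKM + 1) of the 10667 genes whose mean reached 1 RPKM, with Benjamini-Hochberg adjustment over all of them and a threshold of 0.05. The method was tested on simulated reads with a fixed dispersion and no added shift in scaling. Its recovery of changes as small as most of those here is not reported. The genes and lists were chosen with earlier results of these data known, and p-values were not adjusted over lists alone. All listed genes are accounted for. Named genes of the other lists are those with the lowest adjusted p, up to 6 per direction for the pathway and 3 for the G2 and M phases. Exceptions are Dnmt1 and subunit genes looked up afterwards, whose calls were not followed gene by gene over the alternatives. Histone cluster genes were taken by symbol after values were seen. Ratios within a library other than that of Cdt1 to Gmnn were chosen after values were seen and got no test. For genes with several promoter windows the first listed one was used. Libraries of 1 group differed beyond sampling noise (chi-square per degree of freedom 4.52 to 15.9), so each library counted as 1 sample. Alternatives were other scalings, a pseudocount of 0.1, no filter, robust variance, limma-voom on recovered reads, a replicate block and leaving out libraries.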

Additional observations from a re-analysis of the deposited data

How the results depend on the processing

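Of the 42 replication and G1/S genes, 18 were called higher with DHC. With trimmed-mean scaling 10 were, 11 with median-of-ratios factors, and between 11 and 17 when each library was left out in turn, with the lowest without DHC replicate 3. The number called lower was 2, and between 1 and 3 when each library was left out. Of all genes, 1968 were called higher, 1285 under scaling by trimmed means, 1365 with median-of-ratios factors and between 1195 and 1755 with each library left out. Scaling by trimmed means moved the share of higher among all calls from 53.4% to 37.8%, and median-of-ratios factors to 40.0%. Of the other pathway genes 31 rose, 19 with no filter on low values and between 17 and 24 with each library left out. The log2 ratio of Cdt1 to Gmnn was 0.36 to 0.55 higher with DHC over the same settings. The share of promoters with the E2F letters was 44.4%, and 25.0% in the bases before the start only, a shorter window. With the replicate number as a block (replicate block), 22 of the 42 rose and 2 fell, and 2426 and 1907 of all genes. Orc1, Gmnn, Mcm3, Pola1 and Rrm1 were then called higher (limma adjusted p = 0.0216, 0.0261, 0.0341, 0.0148 and 0.0313), and Rfc4 was not (0.0675). Deviations from the group means correlated by 0.23, -0.05 and 0.08 between libraries numbered 1, 2 and 3. Between libraries of different numbers they correlated by -0.18 to 0.11. The numbers were not taken to pair the libraries, although those numbered 1 had the highest correlation.

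Signs turned for 5 uncalled genes. With trimmed-mean scaling the log2 differences were -0.013 for Mcm5, -0.052 for Prim1, -0.048 for Tyms and -0.004 for Ccne2, and with median-of-ratios factors -0.004 for Mcm5, -0.043 for Prim1 and -0.038 for Tyms. Without both libraries numbered 1 they were 0.011 for Gins1 and -0.005 for Tyms. With each library left out in turn they ranged from -0.049 to 0.007 for Gins1, -0.009 to 0.046 for Prim1 and -0.045 to 0.062 for Tyms. Where a call or sign changed, the cause was not tested beyond the fewer libraries or other scaling used. Depth was lowest for Chaf1b, with 76 to 146 reads per library, and counting error and spread between libraries were not compared gene by gene.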
